A study of Homo sapiens with 6 samples.

Results

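Ribosomal protein genes encode the structural proteins of the cytosolic ribosome. The 85 genes described here were picked by symbol alone: protein-coding genes off chromosome Y, named RPSA, RPLP0 to RPLP2, or RPL or RPS with a number and at most a short suffix. They are 85 of the 58302 genes in the deposited table, 19847 of which are protein coding. Of the 85, 32 belong to the small subunit and 53 to the large subunit. By symbol, 8 are paralogs named after another member (such as RPL22L1 after RPL22), and the other 77 are called core members below. RNA came from ME180, an epithelial cervical cancer line, and both groups were siRNA-transfected cultures of that line harvested at 48 h. The control group received siControl (3 libraries) and the knockdown group siSGK1, against the kinase SGK1 (3 libraries). The series design calls the libraries biological repeats, and their labels number them 2, 3 and 4. The comparison asks which RNA levels differ in cells with less SGK1; 1 line and 1 control siRNA limit it as a model, with siRNA sequences not given in the sources used here.

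Small-subunit proteins build the part of the ribosome that reads the mRNA, and large-subunit proteins build the part that joins amino acids. Their mRNAs are abundant in growing cells, and most begin with a C followed by an uninterrupted run of pyrimidines, the 5′ terminal oligopyrimidine (TOP) motif, through which mTORC1 controls their translation. LARP1 and the 4E-BP proteins act on TOP mRNAs, and SGK1 is a kinase related to AKT that is switched on downstream of mTORC2. Several members also act outside the ribosome: free RPL5 and RPL11 bind MDM2, a ubiquitin ligase.

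SGK1 was measured first, as a check of the labels. It read 3.91, 4.27 and 4.17 FPKM in siControl replicates 2, 3 and 4, and 1.58, 1.70 and 1.81 FPKM in the siSGK1 libraries. FPKM divide a gene's fragments by its length and by library size. All siSGK1 values lay below all siControl values: the log2 change was -1.07 (SE 0.07, adjusted p = 1.88e-05), and the two-sided exact permutation p was 0.1, the lowest possible with 3 against 3. Each library held 27262794 to 35242643 reads. The epithelial markers KRT5 (2615 to 4079 FPKM) and EPCAM (35.2 to 37.9) were high. Markers of blood, fibroblasts and endothelium were at or near 0 for PTPRC, CD3E, COL1A2, DCN and PECAM1. The 8 such markers together summed to 6.23 to 6.53 FPKM in siControl and 5.59 to 6.43 in siSGK1, mostly from COL1A1, and without COL1A1 to 1.32 to 1.57 against 0.729 to 0.805.

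To show the motif that the family shares, 50 bases around the start site that RefSeq lists are printed for 12 members: 4 of the 8 lowest members, RPSA, 3 of the paralogs with their namesakes, and RPS26. Each stretch runs 5′ to 3′ on the gene's strand, with 30 bases before the start and 20 from it, on GRCh38.p14. Capitals mark the uninterrupted pyrimidine run that begins at the start; a sequence with no capitals begins with a purine.
RPS16: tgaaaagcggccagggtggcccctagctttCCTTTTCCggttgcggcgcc
RPLP1: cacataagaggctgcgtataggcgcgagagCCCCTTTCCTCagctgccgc
RPS18: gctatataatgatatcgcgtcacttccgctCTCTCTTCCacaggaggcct
RPS3: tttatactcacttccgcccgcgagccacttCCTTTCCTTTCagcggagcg
RPSA: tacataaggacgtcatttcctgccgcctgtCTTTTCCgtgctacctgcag
RPL22: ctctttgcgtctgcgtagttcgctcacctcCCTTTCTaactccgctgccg
RPL22L1: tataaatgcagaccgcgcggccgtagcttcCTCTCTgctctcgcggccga
RPL26: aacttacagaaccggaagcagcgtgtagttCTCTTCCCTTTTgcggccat
RPL26L1: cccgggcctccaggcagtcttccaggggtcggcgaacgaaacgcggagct
RPS27: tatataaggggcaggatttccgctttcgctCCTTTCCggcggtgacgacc
RPS27L: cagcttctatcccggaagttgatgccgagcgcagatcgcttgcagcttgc
RPS26: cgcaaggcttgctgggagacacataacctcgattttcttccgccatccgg
These stretches are RPS16 chr19:39435930-39435979 (minus strand), RPLP1 chr15:69452788-69452837 (plus), RPS18 chr6:33272045-33272094 (plus), RPS3 chr11:75399488-75399537 (plus) and RPSA chr3:39406690-39406739 (plus). The paralog pairs are RPL22 chr1:6199576-6199625 (minus) with RPL22L1 chr3:170870176-170870225 (minus), RPL26 chr17:8383174-8383223 (minus) with RPL26L1 chr5:172958699-172958748 (plus, the first of 2 listed starts), and RPS27 chr1:153990732-153990781 (plus) with RPS27L chr15:63157458-63157507 (minus). RPS26 is chr12:56041888-56041937 (plus). Of these, RPL22L1 is the paralog that begins as its namesake does, with a C and a pyrimidine run; RPL26L1 and RPS27L begin with a purine.

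Counted over all members with a RefSeq start, 46 of 62 core members (74.2%) had a C at the start followed by pyrimidines for at least 5 bases in all. The share was 7.18% among 8134 other tested protein-coding genes and 5.14% among all 27305 genes with a listed start. Allowing the run to begin within 5 bases of the listed start gave 85.5% of core members and 25.2% of all genes. Among paralogs, 1 of 6 had the motif, RPL22L1. In the 300 bases from 250 before the start to 50 after it, read on both strands, CGGAAGT (a core letter pattern of ETS factors such as GABPA) was in 30.6% of core members, 16.4% of other tested protein-coding genes and 8.18% of all genes. AAGATGG (a pattern of YY1) was in 12.9%, 9.88% and 7.11% of them. TATAAA was in 8.06%, 7.75% and 13.99%, so that core members were close to the other tested protein-coding genes. These are matches of letters; binding was not measured.

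After SGK1 knockdown the core members fell together by a small amount as the deposited values stand. Of 81 members with a mean of at least 1 FPKM, limma called 70 lower, where 22.7% of all 11945 tested genes were called lower, and 3 higher, where 17.9% were; 8 were not called. A call is an adjusted p below 0.05. The median log2 change of the tested members was -0.26, against -0.0060 for all tested genes, and the highest member was RPL26L1 (0.51). Among the 75 tested core members 69 were called lower and 0 higher, 73 changes were negative, and the median was -0.28. In 73 of the 81 every siSGK1 value lay below every siControl value, as in 28.8% of all tested genes. In 4 every siSGK1 value lay above, as in 24.6% of all, and in 4 (RPS23, RPL11, RPL39 and RPS26) the groups overlapped. Beside these counts, siSGK1 replicate 3 was the lowest of the 6 libraries for 69 of the 81 members. FPKM summed over all genes were also lowest in that library, at 300191, against 319196 to 363773 in the others. Without it 67 members were called lower, and the median was -0.24 for members and -0.0024 for all tested genes. The share of all tested genes called without it was not counted. In bulk RNA, fewer cells and less RNA per cell cannot be told apart.

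**Figure D1:**
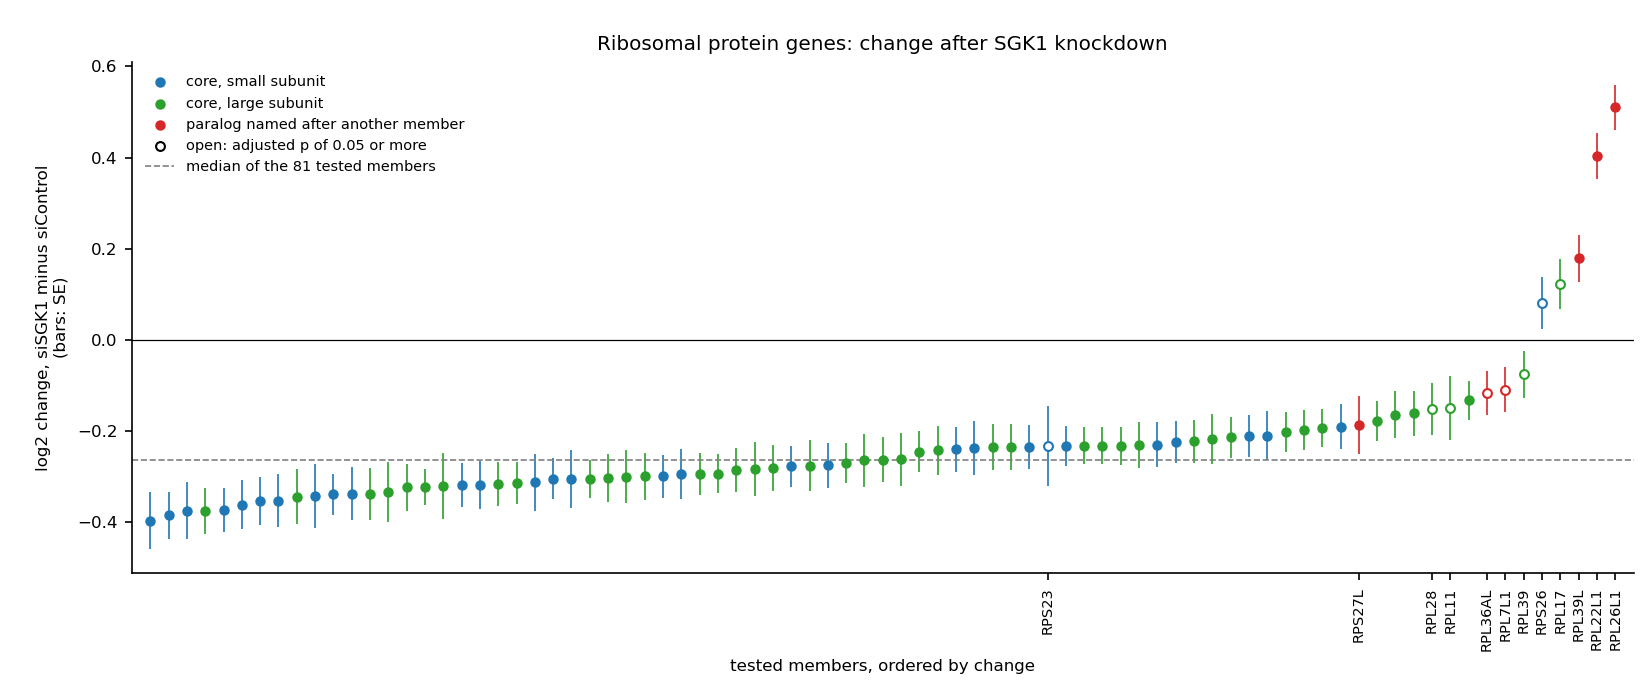
Log2 change of each of the 81 tested ribosomal protein genes (y axis, siSGK1 minus siControl on the log2(FPKM + 0.5) scale, bars SE), ordered along the x axis by change and coloured by kind, with open points for members not called and with names for the paralogs and the members not called. Of the 75 core members 72 lie between -0.40 and -0.13, and RPL39L, RPL22L1 and RPL26L1 are the filled points above 0.

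How far the family fell depended on the scaling between libraries. The median change of members was negative as deposited (-0.26), with total reads (-0.12), TPM (-0.060), cyclic loess (-0.049) and quantile normalization (-0.026), but positive (0.044) when each library was scaled to its median member. That last scaling was chosen after seeing the data and removes a shared shift by construction, so its sign tells nothing of the family's direction. The median of all tested genes moved with the scaling too, to 0.12 with total reads, 0.18 with TPM and 0.30 with the median member. Those scalings apply a factor per library, which moves all genes nearly alike. Members lay 0.24 to 0.26 below the typical gene under them and as deposited, a gap that such factors can hardly change. Under cyclic loess and quantile normalization, which adjust values by level, the gap was 0.051 and 0.038.

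The calls moved with it. With total reads 47 members were called lower and 5 higher (12.9% and 36.1% of all genes). With TPM the counts were 29 and 6 (9.8% and 47.2% of all), so that calls were mostly higher among all genes and mostly lower among members. Cyclic loess gave 23 lower and 8 higher (21.1% and 19.8% of all), and quantile normalization 18 and 10 (19.9% and 20.9% of all). Scaled to the median member, 0 were lower and 21 higher (5.46% and 67.3% of all). Of all member calls, 4.11% were higher as deposited, 9.62% with total reads, 17.1% with TPM, 25.8% with cyclic loess and 35.7% with quantile normalization; over all tested genes these shares were 44.2%, 73.6%, 82.8%, 48.4% and 51.2%. As deposited and with total reads, TPM, cyclic loess and quantile normalization alike, 9 members were called lower, among them RPL9, RPL27A, RPL30, RPL32, RPS14, RPS28 and RPS29. RPL22L1, RPL26L1 and RPL39L were called higher under the same 5.

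**Figure D2:**
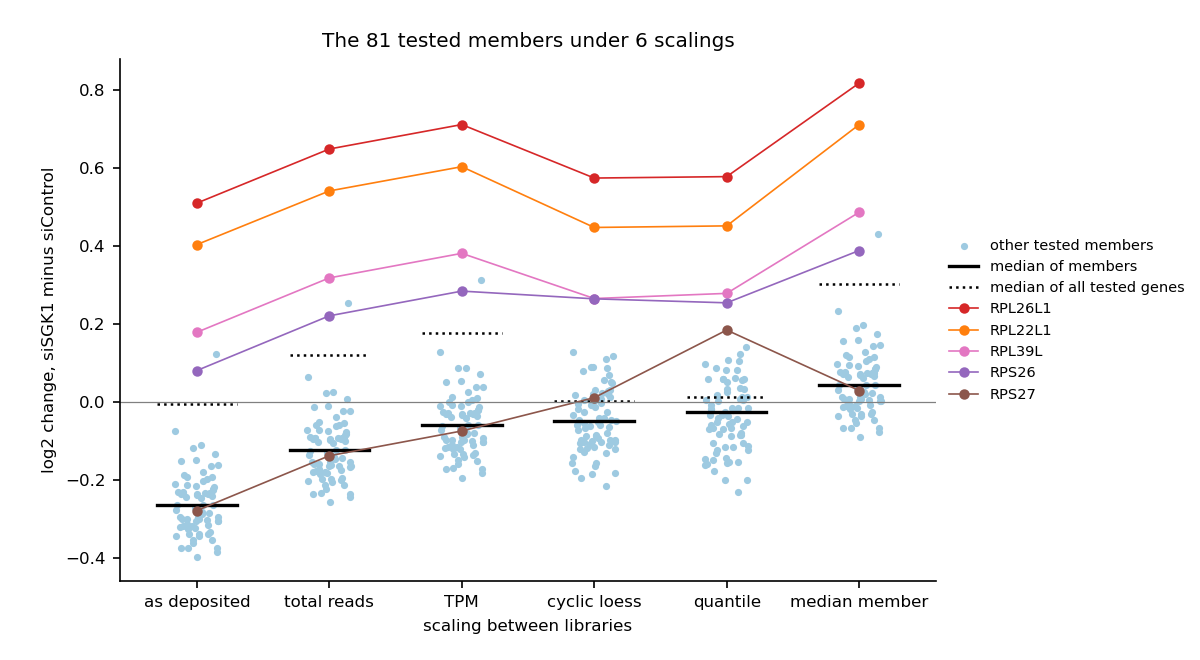
Log2 change (y axis, siSGK1 minus siControl) of the 81 tested members under 6 scalings between libraries (x axis), with the median of members (solid bar) and of all tested genes (dotted bar). RPL26L1, RPL22L1, RPL39L and RPS26 lie above 0 in every column, whereas RPS27 goes from -0.28 as deposited to 0.18 under quantile normalization.

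The same shift was visible as a share of each library. Members took 10.5%, 10.8% and 10.7% of the reads of siControl replicates 2, 3 and 4 and 9.80%, 9.47% and 9.71% of those of siSGK1, or 10.7% ± 0.13 against 9.66% ± 0.17 (SD, n = 3 each). The groups did not overlap. As a share of summed FPKM, in which gene length is divided out, members made up 11.1% ± 0.14 and 10.6% ± 0.10. Mitochondrial reads, also a large block, made up 4.25% ± 0.13 and 3.50% ± 0.14 of the libraries. The part of library composition in the members' change was not tested.

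Abundant genes outside the family were also often called lower. Of 398 other genes with a mean of at least 100 FPKM, 222 were called lower (55.8%), with a median log2 change of -0.19. Of 71 members at that level, 65 were called lower, with a median of -0.28. Across the 75 core members the change had a Spearman rho of -0.40 with mean FPKM, and across all tested genes of -0.16; genes of 1 library share its depth and scaling, so these are descriptions.

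**Figure D3:**
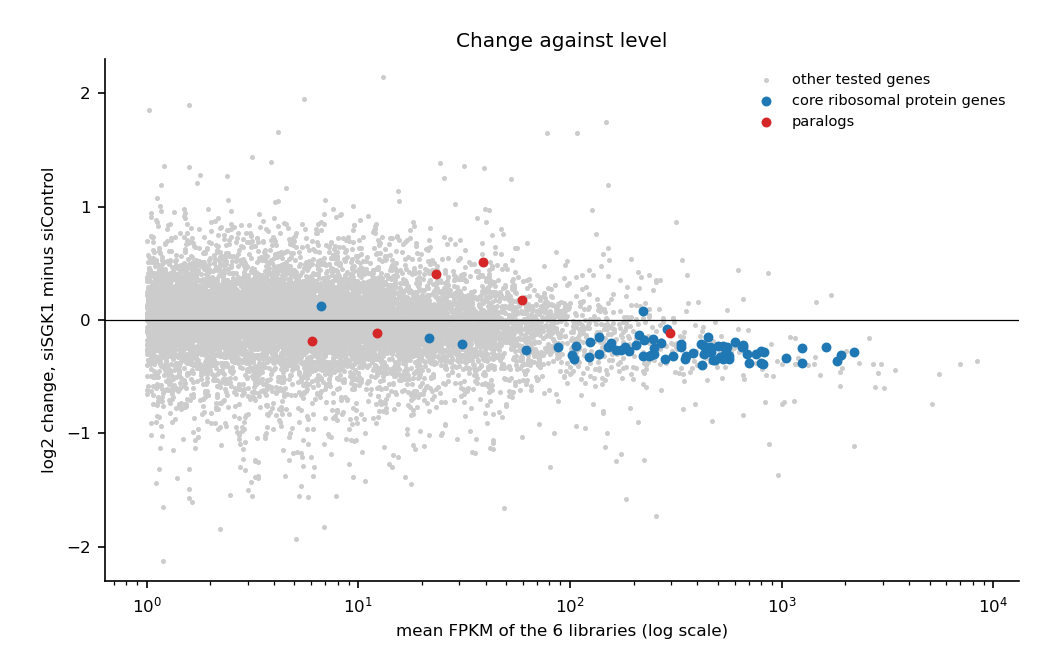
Log2 change (y axis, siSGK1 minus siControl) against mean FPKM of the 6 libraries (x axis, log scale) for core members, paralogs and the other tested genes, 4 of which lie beyond a log2 change of 2.2 and are not drawn. The core members form a narrow band below 0 among the abundant genes, and 3 of the paralogs lie above 0.

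The lowest changes were mostly those of small-subunit genes. The median log2 change of core small-subunit members was -0.30 (28 of 30 tested called lower), and that of core large-subunit members -0.26 (41 of 45); these counts leave out the paralogs. Of the 8 lowest members 7 were of the small subunit, among them RPS16, RPS18, RPS2, RPS14 and RPS3, and RPLP1 was of the large subunit. RPS16, a protein of the small subunit's head, read 931, 938 and 921 FPKM in siControl and 720, 670 and 747 in siSGK1. Its log2 change was -0.39 (SE 0.05, adjusted p = 0.000617), and the groups lay well apart. Under quantile normalization it was 0.012 and not called.

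RPS18, also of the head, went from 900, 904 and 889 FPKM to 712, 658 and 709 (-0.37, SE 0.05). RPS14, whose loss causes the anaemia of the 5q- syndrome, went from 528, 537 and 527 FPKM to 435, 387 and 423 (-0.35, SE 0.05). In both the lowest siControl library stood above the highest siSGK1 library. RPS14 stayed called lower under all 5 scalings listed above, and RPS18 did not.

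RPS2 fell from a mean of 2052 to 1596 FPKM (-0.36) and RPS3, which lines the mRNA entry channel, from 544 to 427 (-0.35). Each mean is of 3 libraries, and no siSGK1 library reached a siControl one. The RPS2 change was 0.057 under quantile normalization (adjusted p = 0.0624) and that of RPS18 0.0024, so their direction turned there. RPSA, the protein also known as the laminin receptor precursor, read 606, 636 and 599.9 FPKM in siControl and 530, 454 and 509.5 in siSGK1 (-0.31, SE 0.06, adjusted p = 0.00544), and a change of 0.0020 when scaled to the median member.

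The stalk proteins, which recruit elongation factors to the large subunit, fell alike. RPLP0, the base of the stalk, read 633, 649 and 619 FPKM in siControl and 529, 458 and 511 in siSGK1 (log2 change -0.35, SE 0.06, adjusted p = 0.00232). RPLP1 read 793, 800.4 and 772 FPKM, then 635, 574 and 615 (-0.38, SE 0.05, adjusted p = 0.000658). RPLP2 read 494, 509.5 and 503 FPKM, then 429.8, 389 and 420.5 (-0.28, SE 0.05, adjusted p = 0.00253). All 3 separated the groups without overlap, and siSGK1 replicate 3 was the lowest library in each. RPLP2 turned to 0.025 when scaled to the median member, and RPLP0 and RPLP1 stayed negative under every scaling run. The calls were less steady. Under quantile normalization RPLP0, RPLP1 and RPLP2 were not called (adjusted p = 0.130, 0.141 and 0.647). Nor were they when scaled to the median member (0.366, 0.0771 and 0.529), and RPLP2 was not called under cyclic loess (0.237).

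RPL5, RPL11, RPL23 and RPS7 are members known to bind MDM2. RPL5 read 277, 291 and 295 FPKM in siControl and 249.9, 245 and 254 in siSGK1 (log2 change -0.20, SE 0.04, adjusted p = 0.00655), with no overlap. RPL11, its partner, read 475, 444 and 489.6 FPKM, then 454, 383 and 434 (-0.15, SE 0.07, adjusted p = 0.118), and siSGK1 replicate 2 stood above siControl replicate 3. RPL23 changed by -0.26 (SE 0.05, adjusted p = 0.00344) and RPS7 by -0.19 (SE 0.05, adjusted p = 0.0145). The RPS7 call was lost without siControl replicate 3 or replicate 4 (adjusted p = 0.0519 and 0.0524). The changes of RPL5 and RPS7 were 0.00035 and 0.011 with TPM, and RPL5, RPL11, RPL23 and RPS7 were all positive when scaled to the median member (0.10, 0.16, 0.044 and 0.12). MDM2 itself changed by -0.021 and was not called (adjusted p = 0.859); MDM4 was below the level tested.

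The 3 members called higher were all paralogs. RPL26L1, which differs from RPL26 at few residues, lies at chr5:172958729-172969771. It read 30.5, 32.3 and 33.2 FPKM in siControl and 45.1, 44.7 and 47.5 in siSGK1. Every siSGK1 library stood well above every siControl library: the log2 change was 0.51 (SE 0.05, adjusted p = 0.000118), with 932 to 2026 reads per library behind it. RPL22L1, the paralog of RPL22, lies at chr3:170864875-170870483 and read 18.9, 21.1 and 20.2 FPKM, then 26.2, 26.9 and 26.9. Its groups did not overlap either, with a log2 change of 0.40 (SE 0.05, adjusted p = 0.000436).

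RPL39L, a paralog of RPL39 best known from testis, lies at chr3:187120948-187180908 and read 52.8, 57.2 and 58.0 FPKM in siControl and 65.1, 60.6 and 64.5 in siSGK1. The groups did not overlap, but the change was small (0.18, SE 0.05, adjusted p = 0.0249). It was not called without siControl replicate 2, siControl replicate 3, siSGK1 replicate 2 or siSGK1 replicate 4 (adjusted p from 0.0540 to 0.0856). RPL26L1 and RPL22L1 kept their calls whichever library was left out.

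**Figure D4:**
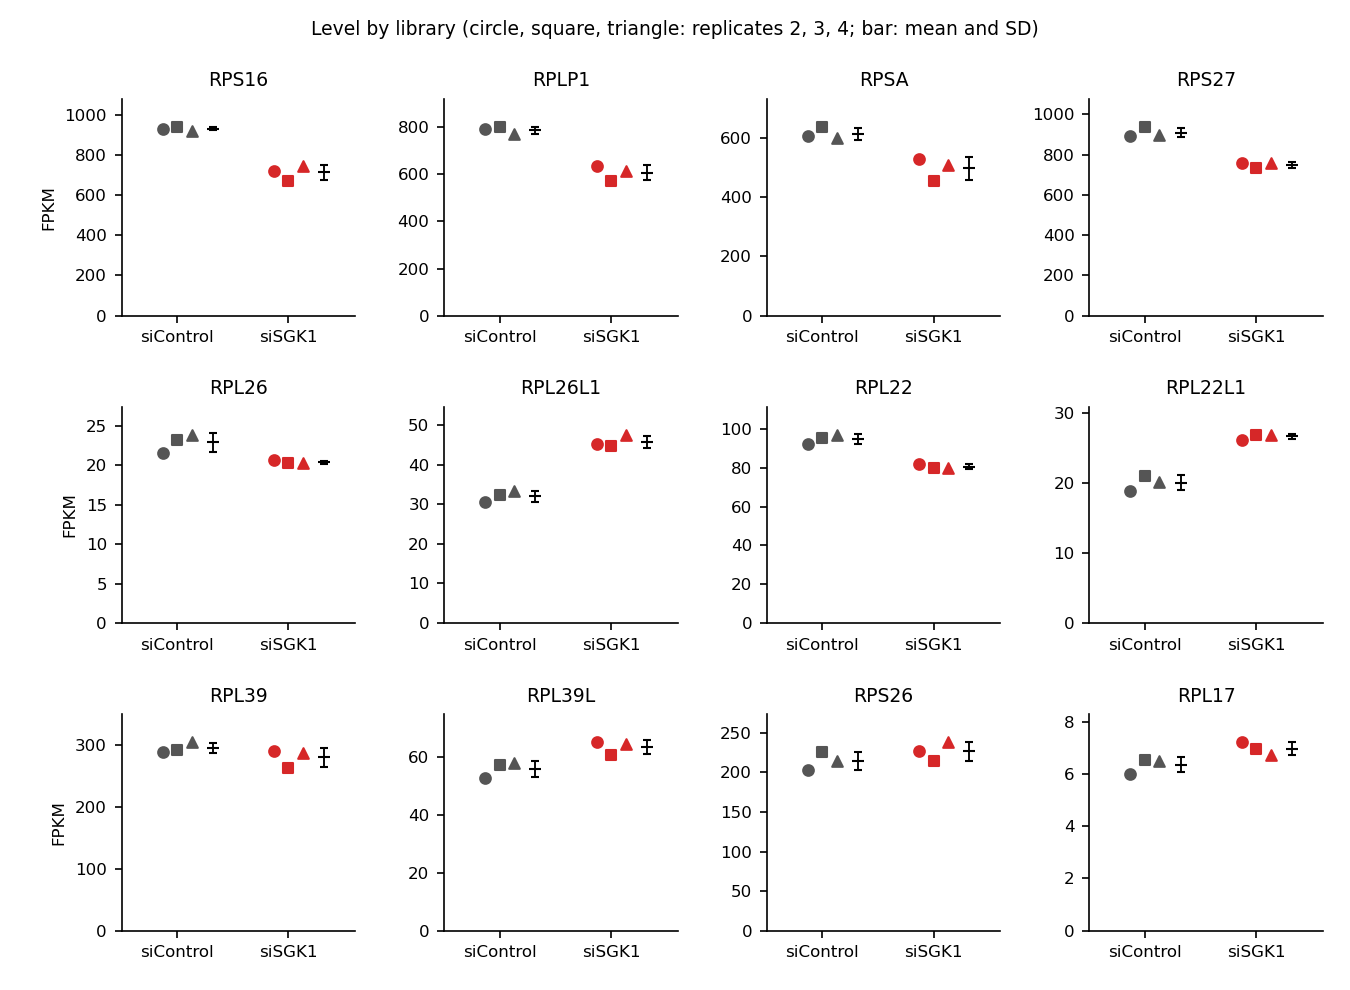
FPKM (y axis, from 0) of 12 ribosomal protein genes in each library (x axis, siControl and siSGK1), with a bar for the mean and SD of each group. RPS16, RPLP1, RPSA and RPS27 fell, RPL26L1, RPL22L1 and RPL39L rose with no overlap, and the RPS26 and RPL39 groups overlap.

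Other paralogs were not called higher as deposited. RPS27L, the paralog of RPS27, read 6.30, 6.605 and 6.56 FPKM in siControl and 6.08, 5.20 and 5.65 in siSGK1 (log2 change -0.19, SE 0.06, adjusted p = 0.0419); the call was lost without any 1 of 5 libraries (adjusted p from 0.0611 to 0.122), siSGK1 replicate 2 being the exception. RPL7L1, a nucleolar relative of RPL7, had 12.5, 13.4 and 12.5 FPKM, then 12.05, 11.45 and 11.96 (-0.11, SE 0.05, adjusted p = 0.109). RPL36AL, which encodes a protein nearly identical to that of RPL36A, had 298, 311 and 316 FPKM, then 297.8, 278 and 277 (-0.12, SE 0.05, adjusted p = 0.0812). RPL36AL turned positive under all 5 other scalings, RPL7L1 with total reads, TPM and the median member, and RPS27L with TPM (0.00062) and the median member (0.12). The remaining paralogs were below the level tested: RPL3L, the muscle form of RPL3, had 0.0699 to 0.241 FPKM, and RPL10L, the testis form of RPL10, was listed at 0 in all 6 libraries.

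Set against its namesake within the same library, which no scaling factor per library alters, RPL26L1 went from 142%, 139% and 139% of the RPL26 level to 219%, 221% and 235%. RPL22L1 went from 20.5%, 22.1% and 20.8% of RPL22 to 31.99%, 33.7% and 33.7%. The mean ratios were 1.605-fold and 1.57-fold those of siControl, and no library of one group reached the other. RPL39L went from 19.03% ± 0.67 to 22.7% ± 0.33 of RPL39 (1.19-fold) and RPL7L1 from 2.26% ± 0.18 to 2.61% ± 0.16 of RPL7 (1.155-fold; SD, n = 3 each). For RPS27L the ratio was 0.713% ± 0.015 and 0.752% ± 0.048 of RPS27, and the groups overlapped. Over the 5 pairs an exact two-sided permutation test gave p = 0.1 for the first 4 (0.125 after Benjamini-Hochberg adjustment) and 0.2 for RPS27L; 3 against 3 cannot go below 0.1.

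**Figure D5:**
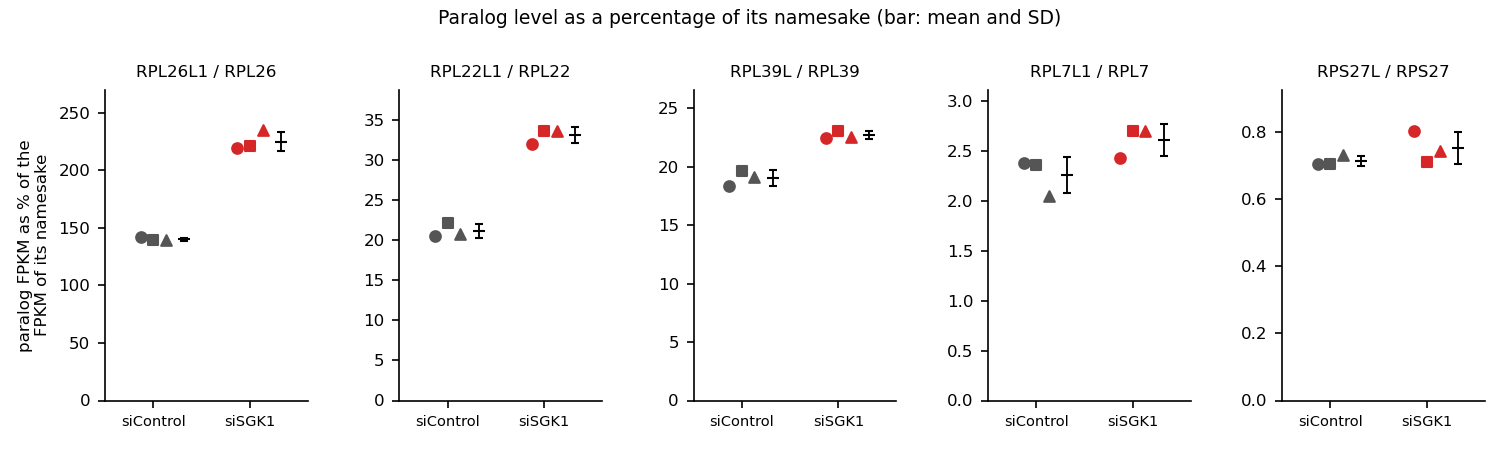
FPKM of each paralog as a percentage of the FPKM of its namesake (y axis, from 0) in each library (x axis, siControl and siSGK1), with bars for mean and SD. The RPL26L1 ratio averages 140% in siControl and 225% in siSGK1 and the RPL22L1 ratio 21.2% and 33.1%, with no overlap in the first 4 panels.

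The namesake in the first ratio was itself counted on part of its sequence. RPL26 read 21.5, 23.2 and 23.8 FPKM in siControl and 20.6, 20.2 and 20.2 in siSGK1 (log2 change -0.16, SE 0.05, adjusted p = 0.0296), and this call too was lost without any 1 of 5 libraries (adjusted p from 0.0536 to 0.105), the exception being siControl replicate 2. In GENCODE 29, 60.7% of its coding bases are also exons of AC135178.2, a coding gene on the same strand, which had 0 to 3 reads per library. RPL26 ranked 74 of 77 core members by siControl level, so the percentages above compare RPL26L1 with what was counted for RPL26, not with all RPL26 mRNA. RPL22 read 92.2, 95.3 and 96.96 FPKM, then 82.0, 79.9 and 79.9 (-0.23, SE 0.04, adjusted p = 0.00245). It shares 59.4% of its coding bases with AL031847.2, a gene not analysed here. RPL26L1, RPL22L1 and RPL39L share no coding bases with a coding gene of their strand.

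The core members with the lowest levels were members that share coding bases with another coding gene of their strand; low paralogs such as RPL7L1 do not. Of 7 members that share coding bases this way, 6 have the other gene in the table, and 5 of those 6 were the 5 lowest core members by siControl level: RPL36A (0.398 FPKM, 67.3% shared with RPL36A-HNRNPH2), RPS10 (0.423 FPKM, 56.9% with RPS10-NUDT3), RPL17 (6.36 FPKM, 98.2% with RPL17-C18orf32), RPL26 and RPS15A (33.1 FPKM, 36.9% with AC138811.2). The sixth was not among the lowest. The partner genes had 0 to 3 reads in every library. Whether reads on shared exons were left uncounted was not tested. RPL36A and RPS10 fell below the level tested, with 36 to 99 and 16 to 34 reads per library.

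RPL17, with the largest share of shared coding bases, read 6.03, 6.57 and 6.50 FPKM in siControl and 7.23, 6.95 and 6.73 in siSGK1, from 390 to 608 reads. Its groups did not overlap, but the change of 0.12 (SE 0.05) was not called (adjusted p = 0.107). It was called with total reads, TPM and the median member, at 0.25, 0.31 and 0.43. RPS15A was called lower (-0.21, SE 0.05, adjusted p = 0.0136).

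RPS26 was not called lower although its level was within the range of the core and it shares no coding bases. This protein of the mRNA exit channel lies at chr12:56041853-56044675 and read 203, 225 and 215 FPKM in siControl and 228, 214 and 238 in siSGK1, on 10347 to 16948 reads. The groups overlapped and the change of 0.080 (SE 0.06) was not called (adjusted p = 0.290). It was the highest change of any core member of the small subunit and lay 0.34 above the median of members. Under the other scalings it was positive throughout and called higher: 0.22 with total reads, 0.28 with TPM, 0.26 with cyclic loess, 0.25 with quantile normalization and 0.39 with the median member. TSR2, the chaperone that carries RPS26 to the ribosome, was called higher as deposited, from 52.6, 51.8 and 47.8 FPKM to 60.5, 60.7 and 58.8 (0.24, SE 0.05, adjusted p = 0.00480). The TSR2 change was 0.32 under cyclic loess and 0.33 under quantile normalization. The other scalings raised the changes of nearly all genes, so they could not turn it.

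RPL39, which lines the exit tunnel, was the other core member near 0, at 288, 291 and 304 FPKM in siControl and 289.8, 262 and 286 in siSGK1 (-0.076, SE 0.05, adjusted p = 0.274). It turned positive under all 5 other scalings. RPL28 (-0.15, adjusted p = 0.0642) and RPS23 (-0.23, adjusted p = 0.0629) were the last of the 8 tested members not called. RPS23 had the largest coefficient of variation in siSGK1 (12.5%): 193, 188 and 211 FPKM, then 189, 147 and 170.03. At an unadjusted p below 0.05, 76 members would pass. The share of all tested genes that would pass was not counted, so this number has no background to be read against.

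RPS27, a zinc-binding protein of the small subunit, showed how much an abundant member can depend on scaling. It read 895, 936 and 898 FPKM in siControl and 756, 732 and 761 in siSGK1, a clear gap, with a log2 change of -0.28 (SE 0.04, adjusted p = 0.00157). Under quantile normalization the change was 0.18 and called higher (adjusted p = 0.00260), and under cyclic loess it was 0.011. RPL8, RPL13A, RPL35, RPS12 and RPL7A were also called higher under quantile normalization and lower as deposited. RPL30, by contrast, read 137, 139 and 134 FPKM, then 109.6, 107 and 111 (-0.32, SE 0.04, adjusted p = 0.000436), and stayed negative under all scalings run (-0.016 with the median member).

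Replicates agreed closely for most members. The coefficient of variation over 3 libraries ran from 0.413% to 7.24% in siControl (median 2.59%) and from 1.03% to 12.5% in siSGK1 (median 4.32%) across the tested members. Levels spanned a wide range: siControl means of the 75 tested core members ran from 6.36 FPKM (RPL17) to 2419 FPKM (RPL35), with a median of 448. Next to RPL35 came RPL13A (2110 FPKM), RPS2 (2052) and RPL41 (1750), and RPL41 encodes the smallest protein of the ribosome. The order of levels rests on the deposited lengths, which were 1.06 to 32.9 times the shortest principal transcript (median 3.65). Dividing by that transcript length instead raised the median level to 1556 on the same scale, and the 2 orders had a Spearman rho of 0.73 (n = 75).

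Core members with the pyrimidine run at the listed start and those without it there had similar medians. Of 44 tested core members with a C and 5 or more pyrimidines at the listed start, 40 were called lower (median log2 change -0.28). Of 16 with another start, 14 were (median -0.24). Among these, RPL3, RPL4, RPL10A, RPL19, RPL32, RPS7 and RPS28 have such a run within 5 bases of the listed start. The split is therefore not a clean one between members with and without the motif, and the difference was not tested. Of 584 other tested genes with such a start, 26.5% were called lower and 17.1% higher, with a median of -0.019. Of 7550 other genes with another start, 22.0% and 18.5% were, with a median of 7.56e-05.

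Subunits that the symbol rule leaves out moved with the core. RACK1, a scaffold on the small subunit, changed by -0.23 (SE 0.05, adjusted p = 0.00606) and FAU, a ubiquitin-like fusion to a small-subunit protein, by -0.21 (SE 0.05, adjusted p = 0.0103). Both separated the groups as deposited, and both were positive when scaled to the median member; FAU was 0.0089 and 0.0050 under cyclic loess and quantile normalization.

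Of 17 tested TOP mRNAs that encode other translation factors and partners, 7 were called lower and 2 higher, with a median log2 change of -0.15. Those shares were 41.2% and 11.8%, against 22.7% and 17.9% of all tested genes. EEF1B2, an exchange factor of elongation, fell from 225, 226 and 219 FPKM to 184, 174 and 179 (-0.32, SE 0.04, adjusted p = 0.000578). TPT1 and BTF3 each changed by -0.26 (adjusted p = 0.00127 and 0.00250). EIF3F, a subunit of an initiation factor, rose from 22.0, 23.0 and 22.5 FPKM to 28.2, 25.1 and 27.6 (0.26, SE 0.05, adjusted p = 0.00606). Its change was 0.30 under cyclic loess and 0.31 under quantile normalization. The other scalings raised the changes of nearly all genes, so they could not turn it. The changes of TPT1 and BTF3 were 0.052 when scaled to the median member, and that of EEF1B2 was -0.011.

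Among 13 regulators of TOP mRNAs, 3 were called lower (23.1%, near the 22.7% of all tested genes) and 0 higher. RPS6KB1, the kinase that phosphorylates RPS6 downstream of mTORC1, fell from 2.89, 3.18 and 3.47 FPKM to 2.02, 2.18 and 2.03, with no overlap (-0.51, SE 0.08, adjusted p = 0.000985). It was negative under every scaling, at -0.20 with the median member. EIF4EBP1, the gene of 4E-BP1, fell from 76.5, 78.4 and 76.6 FPKM to 64.5, 59.15 and 64.5 (-0.30, SE 0.05, adjusted p = 0.00150), and MLST8, a subunit of both mTOR complexes, changed by -0.30 (SE 0.08, adjusted p = 0.0170). They were 0.010 (MLST8) and 0.0095 (EIF4EBP1) when scaled to the median member. LARP1 changed by 0.13 and was not called (adjusted p = 0.0544).

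Of 6 regulators of ribosomal protein gene transcription, GABPA was called lower, from 2.65, 2.87 and 3.44 FPKM to 2.27, 2.39 and 1.92 (-0.37, SE 0.10, adjusted p = 0.0187), and MAX lower (-0.17, adjusted p = 0.0247). MYC was called higher, from 29.3, 28.96 and 27.1 FPKM to 30.7, 31.1 and 33.2 (0.15, SE 0.05, adjusted p = 0.0415). MYC was 0.21 under both cyclic loess and quantile normalization, and the other scalings, which raised nearly all changes, could not turn it. GABPA was negative under all scalings run, but not called with total reads, TPM or the median member (adjusted p = 0.0880, 0.160 and 0.654). MAX turned positive with TPM (0.029) and the median member (0.14). Of 11 chaperones and importers of ribosomal proteins TSR2 alone was called (9.09% higher, against 17.9% of all tested genes). RNA polymerase I makes the ribosomal RNA. Of 13 tested genes of its subunits and initiation factors, 0 were called lower and 2 higher (15.4%, near the 17.9% of all tested genes). Both were initiation factors, UBTF (0.16, adjusted p = 0.0173) and TAF1C (0.19, adjusted p = 0.0346), and no polymerase subunit was called.

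Mitochondrial ribosomal proteins, which build a separate ribosome, had a smaller median change. Of 76 tested, 18 were called lower (23.7%, near the 22.7% of all tested genes) and 6 higher (7.89%, against 17.9% of all), with a median log2 change of -0.076. The cytosolic members had a median of -0.26 on the same scale; the difference between the lists was not tested.

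Pseudogene copies of the members carried few reads in all. Of 963 such pseudogenes 621 had no read, and together they had 2.53% ± 0.10 of the members' reads in the control libraries and 2.43% ± 0.10 after knockdown (SD, n = 3 each). Single copies were large: RPL9P9 averaged 13248 reads per library against 9768 for RPL9, and the 3 copies of RPS28 held 76.0% as many reads as RPS28. Of the 59 pseudogenes tested, 32 were called lower and 5 higher, with a median log2 change of -0.33. As shares these were 54.2% and 8.47%, against 22.7% and 17.9% of all tested genes. Adding each pseudogene's reads to its member moved 1 member by more than 0.02 (RPL21, from -0.26 to -0.28), and 70 members were again called lower and 3 higher. Near-identical copies may share reads, so the split between a member and its copies is uncertain.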

How the data were processed

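PolyA RNA of 6 ME180 cultures was sequenced. The authors deposited FPKM per gene. The submitters' processing notes name bcl2fastq (2.19), HISAT2 (2.0.5), featureCounts (1.5.0-p3) and the build hg19. Gene positions in the table match GRCh38: they equalled those of GENCODE 29 for 56545 of 58039 shared identifiers (97.4%). Coordinates in the text are from the table, except those of RefSeq sequences. How strand and reads with several matches were treated is not stated in these sources.

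FPKM times gene length gave whole multiples of 1 step for 100% of values (tolerance 0.001), which gave the reads of each library. That step did not equal 1 over the read total, so the deposited values carry the authors' own scaling. The library size it implied lay below the read total in every siControl library and above it in every siSGK1 library. The excess was largest in siSGK1 replicate 3 (33120891 against 30305453 reads). Against total-read scaling, this lowers siSGK1 values and raises siControl values. Values were tested as log2(FPKM + 0.5), which understates changes of low genes, with limma 3.58.1 (R 4.3.3, empirical Bayes with intensity trend, two-sided, all 6 libraries, no covariate) and Benjamini-Hochberg adjustment over 11945 genes with a mean of at least 1 FPKM. All adjusted p-values of genes are limma's. The script was checked on simulated data.

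Members and lists were chosen with earlier results of these data known. Values are given in full for the 8 lowest and 8 highest members, those called higher, RPLP0, RPLP1, RPLP2, RPSA, paralog pairs and MDM2 binders, for up to 4 genes with the smallest p of each other list, and for SGK1; RPS15A, RPL30, RPS23 and RPL28 were added after their values were seen. A few genes these rules pick are counted but not reported by name here. RefSeq promoters listed a start for 68 of the 85 members. Alternatives were pseudocount, level filter, scaling, voom, trend, gene length, pseudogene reads, a replicate block and leaving out each library.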

Additional observations from a re-analysis of the deposited data

How the results depend on the processing

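The counts of members called and their median changed with the scaling between libraries. Members called lower, 70 as deposited, were 18 with quantile normalization, 23 with cyclic loess, 29 with TPM and 0 scaled to the median member (added after seeing the data). Members called higher, 3 as deposited, were 10, 8, 6 and 21, and 5 with total reads. The median change of members was -0.026 with quantile normalization, -0.049 with cyclic loess, -0.12 with total reads and -0.060 with TPM. Scaled to the median member, which removes a shared shift by construction, it was 0.044. The log2 change of the members' share was -0.14 for reads and -0.078 for FPKM. The SGK1 call kept its direction and threshold under the 19 alternatives that tested it; at a mean of at least 5 FPKM it was not tested.

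Of 28 named members under 20 alternatives (560 pairs), 449 kept direction and call, 65 lost the call, 11 gained one and 35 turned sign, all 35 under a scaling. Quantile normalization turned RPS16 (0.012), RPS18 (0.0024), RPS2 (0.057), RPS27 (0.18), RPL11 (0.082), RPL36AL (0.059) and RPL39 (0.097). Cyclic loess turned RPS27 (0.011), RPL11 (0.090), RPL36AL (0.089) and RPL39 (0.13). Total reads turned RPL36AL (0.022), RPL7L1 (0.025) and RPL39 (0.065). TPM turned RPL5 (0.00035), RPS7 (0.011), RPS27L (0.00062), RPL26 (0.038), RPL11 (0.054), RPL36AL (0.086), RPL7L1 (0.086) and RPL39 (0.13). The median member turned RPSA (0.0020), RPLP2 (0.025), RPS27 (0.029), RPL23 (0.044), RPL22 (0.075), RPL5 (0.10), RPS7 (0.12), RPS27L (0.12), RPL26 (0.15), RPL11 (0.16), RPL36AL (0.19), RPL7L1 (0.20) and RPL39 (0.23). Scaling to the median member removes a shared shift by construction, so its 13 turns tell nothing of the family's direction. The cause of the other turns was not tested.

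Leaving out 1 library at a time gave 62 to 71 members called lower, 2 to 3 called higher and a median of -0.28 to -0.24. Without a level filter 53 of 84 were called lower and 2 higher. With the replicate block, 67 were lower and 3 higher and the median stayed -0.26. The share of all tested genes called in these fits was not counted, so the member counts have no background. In these fits the median of members lay 0.23 to 0.28 below that of all tested genes. Same-numbered libraries had deviations correlated at 0.12, 0.01 and -0.10, and libraries with unlike numbers at -0.16 to 0.15. Whether same-numbered libraries share a batch cannot be told from so few. With 3 libraries a group, no exact test can go below 0.1, and members with few reads (RPL36A, RPS10) were not testable.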
